A study of Arabidopsis thaliana with 15 samples.

Results

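Antiporters of the cation/proton antiporter 1 and 2 families move a monovalent cation, mostly potassium or sodium, across a membrane in exchange for protons. Arabidopsis has a large CHX family, the NHX family (to which the sodium exporter SOS1 belongs) and the KEA family. In pollen tubes, which extend at the tip and depend on potassium uptake and on steady pH gradients, proton pumps supply the gradient that these exchangers use. The set described here was chosen by name, with earlier results of these data known. In all, 42 loci were listed (28 CHX, 8 NHX with SOS1, 6 KEA), and 23 of them had a probe set that paired with exactly 1 gene (18 CHX, 2 NHX, 3 KEA) among the 22746 probe sets tested. The other 19 loci were not analysed here. They are CHX1, CHX2, CHX5, CHX6a, CHX11, CHX17, CHX18, CHX23, CHX24 and CHX25, then NHX2, NHX3, NHX5, NHX6, SOS1 and NHX8, and KEA3, KEA5 and KEA6.

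Affymetrix ATH1 arrays were hybridised with RNA from Columbia (Col-0) wild-type pollen in 4 conditions, 15 arrays in all. The conditions were dry pollen from mature flowers (4 arrays), pollen kept in growth medium for 0.5 h (0.5 h PT, 4 arrays) or for 4 h (4 h PT, 4 arrays) and semi in vivo pollen tubes (SIV PT, 3 arrays). For SIV PT, pollen was put on the stigma of an excised male sterile 1 (ms1, Landsberg) pistil, which makes no pollen of its own. By the study's methods, the tubes came out of the cut pistil after 3 h, grew another 3 h over medium and were cut off as bundles. The sample labels give a longer time on medium for SIV PT, and this difference was not resolved. The labels call the replicates biological and say no more of their origin, so the p-values measure the spread between these samples. The 4 h PT arrays include grains that had not germinated. In such bulk samples, fewer cells of a type and less RNA per cell cannot be told apart.

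Values are array signals on a linear scale that was set on each array to a 2% trimmed mean of 500, and a mean log2 signal of 8 in a condition was taken as the limit for expression. Changes are limma log2 differences of log2(signal + 64) with their standard error. A change was called at B (the log odds that a probe set changed) above 3 and at least 3-fold, and adjusted p-values are limma's with Benjamini-Hochberg correction over all 22746 probe sets. Because 64 was added to each signal, folds of genes with low signals are smaller than the ratio of the signals. Signals of one gene were not set against those of another, since each probe set has its own response.

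Replicate arrays correlated at Pearson's r of 0.928 to 0.967 outside SIV PT, and SIV PT correlated with dry pollen at 0.811 to 0.840. Of the 9 pollen tube markers 4 were measured (CNGC18, MGD2, ACT12, SPIK), and all 4 were expressed in every condition, with a summed signal of 42648 to 49033 in SIV PT and 114136 to 122099 in dry pollen. Among them SPIK, an inward potassium channel of pollen, was called lower, at 5755 ± 634 in SIV PT and 24994 ± 777 in dry pollen (SD, n = 3 and 4; log2 change -2.11, adjusted p = 4.53e-08). The sperm marker MGH3 was also above the limit in all 4 conditions. Of 12 pistil markers 3 were measured (CES, SPT, SLR1); none reached the limit, and their summed signal was 124 to 397 in SIV PT and 165 to 284 in dry pollen. The green tissue marker RCA stayed below the limit as well. The ratio of 3′ to 5′ control signals was higher on every SIV PT array than on every other array for 3 of 6 control pairs (GAPDH 6.59 to 9.72 in SIV PT, 1.25 to 2.88 elsewhere), and 2 µg of RNA was labelled for SIV PT against 5 µg for the other conditions. The part of these differences in the results below was not tested, and RNA amount and condition cannot be told apart.

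Transcripts of 14 of the 23 measured antiporters were called different between SIV PT and dry pollen and 8 of those were paired with their probe sets only through lists of changed genes. Of the 23 genes, 11 were called higher in SIV PT (CHX3, CHX4, CHX7, CHX9, CHX12, CHX19, CHX21, CHX26, NHX4, KEA1, KEA2), where 4.08% of all probe sets were. Another 3 were called lower (CHX6b, CHX14, CHX27), where 2.82% of all probe sets were, and 9 were not called. The median log2 change was 1.21 over the 23 genes and -0.06 over all probe sets.

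How a probe set was paired with its gene bears on these counts. Of the 23 genes, 7 were paired by the platform's gene table and 8 by supplementary tables that cover probe sets whether or not they changed. The other 8 (CHX3, CHX9, CHX14, CHX26, CHX27, NHX4, KEA1, KEA2) were named only in the study's own lists of changed genes. These 8 had been picked for a change in some comparison, so their values are a description and their counts are no evidence on the family. Among the 15 genes paired independently of those lists, 5 were higher in SIV PT than in dry pollen (CHX4, CHX7, CHX12, CHX19, CHX21), 1 was lower (CHX6b) and 9 were not called, and their median log2 change was 0.01.

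**Figure D1:**
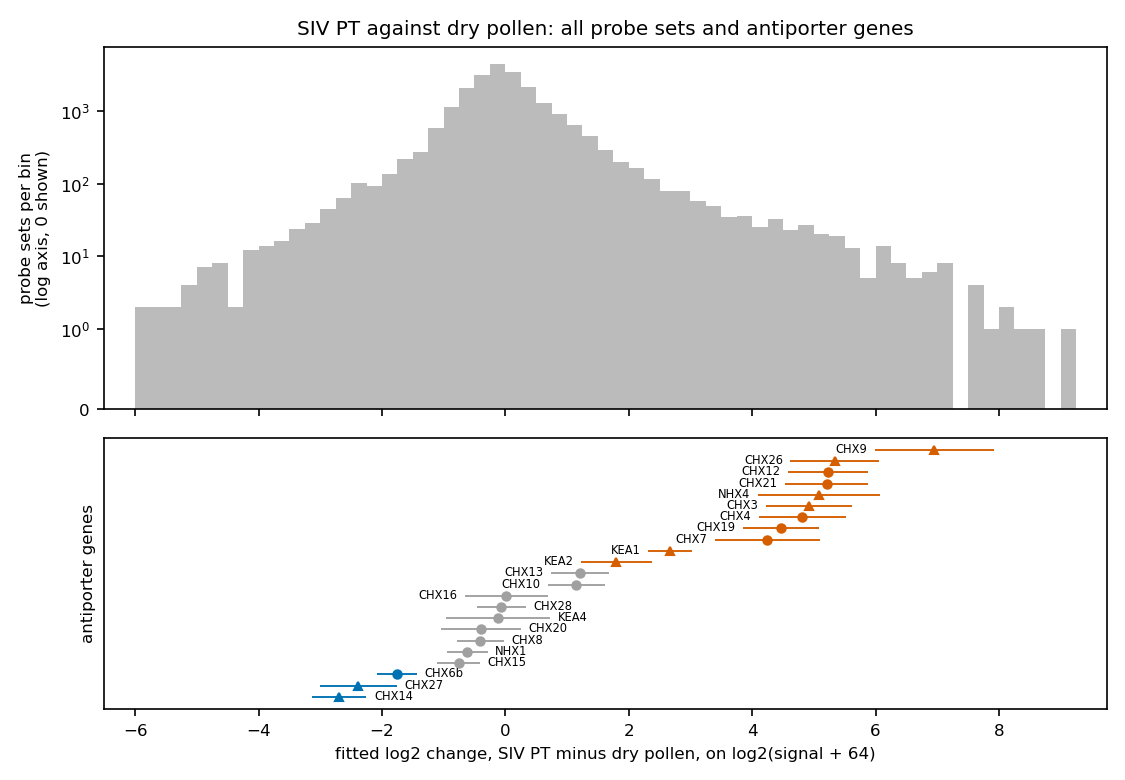
The upper panel counts all 22746 probe sets by log2 change between SIV PT and dry pollen (log axis), and the lower panel shows the 23 antiporter genes with 95% confidence intervals, in orange where called higher, blue where called lower and grey where not called. Triangles are the 8 genes paired only through lists of changed genes and circles the other 15; CHX9 lies farthest right at 6.95 and CHX14 farthest left at -2.69.

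CHX9 and CHX3 are direct neighbours on chromosome 5 in the gene order of the TAIR10.1 RefSeq annotation. The study designed a primer pair for the CHX9 transcript, shown because CHX9 had the largest fitted change of the 23 genes, and one for CHX7, described further on.
CHX9 left: acttgctggtttgattcttgga
CHX9 right: tcatgtccactattcgttgtgc
CHX7 left: cggaaacctttatgggaatctc
CHX7 right: aagtctcagccccttctttgac

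CHX9 (AT5G22910) had signals of 16.9, 16.8, 11.5 and 85.0 in dry pollen and 10.3, 119, 115 and 72.2 in 0.5 h PT, then 1131, 1766, 753 and 4117 in 4 h PT and 10513, 12591 and 11242 in SIV PT. Every 4 h PT array was above every earlier array, and every SIV PT array was above every 4 h PT array. Its log2 difference was 6.95 ± 0.45 in SIV PT against dry pollen (124-fold, adjusted p = 1.47e-08, limma). Its dry pollen signals were far below the expression limit, so the size of this change depends on the added 64, and it was 8.10 with 16 added and 5.35 with 4 times 64. CHX9 was also called in 4 h PT against dry pollen (4.16 ± 0.42, adjusted p = 2.81e-05) and in 4 h PT against 0.5 h PT (3.61 ± 0.42, adjusted p = 2.06e-04). In SIV PT against 4 h PT the log2 difference was 2.80 ± 0.45 with B of 2.77, so it was not called although the groups did not overlap. Without 4 h PT replicate 4, the highest of that group, it was called at 3.24.

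CHX3 (AT5G22900) gave signals of 2.57, 49.0, 8.21 and 20.4 in dry pollen and 43.4, 9.48, 76.5 and 2.68 in 0.5 h PT, then 299, 378, 97.3 and 278 in 4 h PT and 2502, 2289 and 2493 in SIV PT. The SIV PT arrays lay close together and far above the rest, and replicate 3 was the low array of 4 h PT. The fitted log2 change came to 4.92 ± 0.33 in SIV PT against dry pollen (30.3-fold, adjusted p = 1.78e-08) and 3.02 ± 0.33 in SIV PT against 4 h PT (8.12-fold, adjusted p = 5.22e-06). The call in 4 h PT against dry pollen (1.90 ± 0.30, B of 3.25) was close to the limit. It was lost with quantile normalization, median centring, either other offset (16 or 4 times 64) and a replicate block (the replicate number as a term in the fit), and at log2 changes of 1.72 to 1.91 when any of 11 arrays was left out, namely dry pollen replicate 1, 3 or 4, 0.5 h PT replicate 1 or 2, 4 h PT replicate 1, 2 or 4, or any SIV PT replicate.

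CHX4, CHX12, CHX11 and CHX10 follow one another on chromosome 3, with 1 gene that does not code for protein between CHX11 and CHX10. CHX12 (AT3G44910) had signals of 91.3, 64.03, 126 and 160.1 in dry pollen and 172, 111, 82.4 and 79.3 in 0.5 h PT, then 430.2, 595, 338 and 1073 in 4 h PT and 6135, 6714 and 6169 in SIV PT. The 0.5 h PT arrays overlapped with dry pollen, and all 4 h PT arrays were above both. Its log2 change was 5.23 ± 0.31 in SIV PT against dry pollen (37.5-fold, adjusted p = 5.53e-09) and 3.36 ± 0.31 in SIV PT against 4 h PT (10.3-fold, adjusted p = 9.26e-07). CHX12 was called in 4 h PT against dry pollen (1.86 ± 0.28, adjusted p = 0.00112) and against 0.5 h PT (1.86 ± 0.28, adjusted p = 0.00188). The first of these 2 calls was lost without dry pollen replicate 1, 2 or 3 (1.73 to 1.92) and the other without 0.5 h PT replicate 2, 3 or 4 (1.77 to 1.87), and both were lost without 4 h PT replicate 2 or 4 (log2 changes of 1.57 to 1.84 against dry pollen and 1.57 to 1.83 against 0.5 h PT). Either other offset and the replicate block also ended both.

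For CHX4 (AT3G44900) the signals were 10.8, 17.0, 10.5 and 49.97 in dry pollen and 5.56, 67.6, 30.6 and 78.0 in 0.5 h PT, then 499.6, 371, 128 and 397 in 4 h PT and 2212, 2696 and 2089.9 in SIV PT. No dry pollen or 0.5 h PT array reached 100, and no SIV PT array overlapped with 4 h PT. The log2 change was 4.81 ± 0.33 in SIV PT against dry pollen (28.1-fold, adjusted p = 2.58e-08), 2.64 ± 0.33 in SIV PT against 4 h PT (6.21-fold, adjusted p = 2.52e-05) and 2.18 ± 0.31 in 4 h PT against dry pollen (adjusted p = 5.97e-04). The call in 4 h PT against dry pollen was lost without dry pollen replicate 1 or 3 or 4 h PT replicate 1, 2 or 4, at log2 changes of 1.99 to 2.12, and with the larger offset. The offset of 16 ended the call in SIV PT against 4 h PT, as it did for CHX3, CHX7, CHX21 and NHX4.

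CHX10 (AT3G44930) was measured by a probe set of the kind whose probes can match more than 1 transcript, and its neighbour CHX11 was not measured on its own, so its values are uncertain. Its signals were 3379.7, 3253, 3199 and 4015 in dry pollen and 2639, 2927, 4317 and 3893 in 0.5 h PT, then 4067, 4707, 7089.8 and 4767 in 4 h PT and 8006, 7763 and 7419 in SIV PT. All SIV PT arrays were above all others, but the log2 change of 1.15 ± 0.21 (2.22-fold, adjusted p = 6.96e-04) in SIV PT against dry pollen was under the 3-fold limit.

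**Figure D2:**
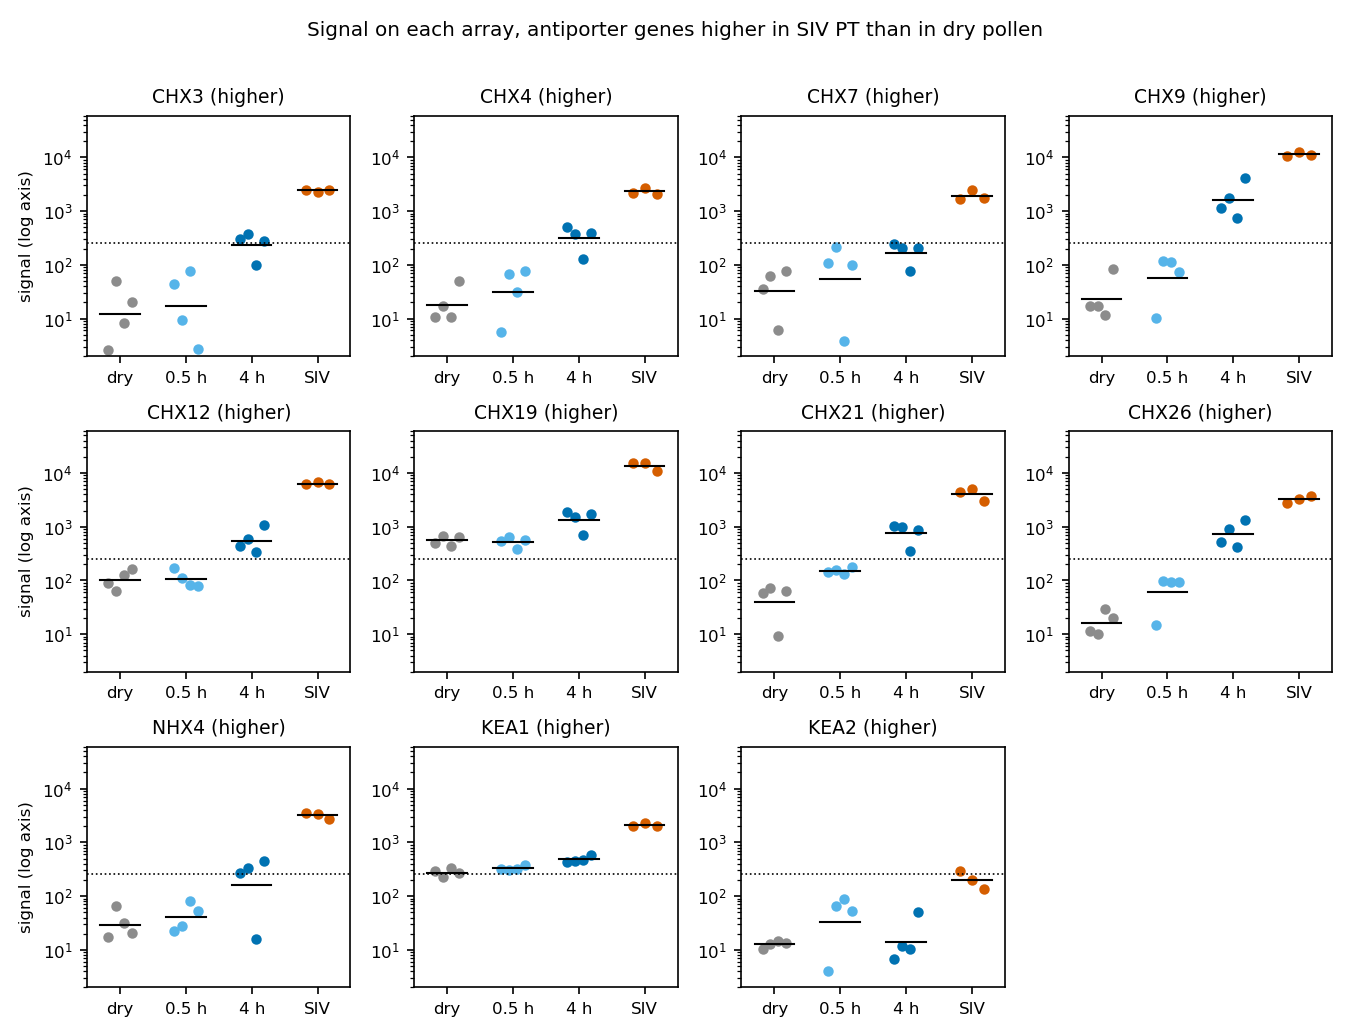
Signal on each array (log axis) for the 11 antiporter genes called higher in SIV PT than in dry pollen; points are arrays, bars are geometric means, and the dotted line is the limit for expression, 8 on the log2 scale. CHX19 and KEA1 were above the limit in all 4 conditions, and KEA2 reached it on 1 SIV PT array only.

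CHX7 and CHX8 are neighbours on chromosome 2, with 1 gene that does not code for protein between them. CHX7 (AT2G28170) had signals of 35.7, 62.1, 6.22 and 77.4 in dry pollen and 109, 213, 3.749 and 98.1 in 0.5 h PT, then 244, 205, 75.7 and 207 in 4 h PT and 1707, 2439 and 1762 in SIV PT. Its low values scattered widely and overlapped among the 3 earlier conditions, and SIV PT stood clear of them. Its log2 difference was 4.25 ± 0.40 in SIV PT against dry pollen (19.0-fold, adjusted p = 7.11e-07) and 3.08 ± 0.40 in SIV PT against 4 h PT (8.48-fold, adjusted p = 3.29e-05), and CHX7 was not called in 4 h PT against dry pollen (1.16 ± 0.37, adjusted p = 0.144). Without SIV PT replicate 2 the call of CHX7 in SIV PT against 4 h PT was lost at a log2 change of 2.93.

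CHX8 (AT2G28180) was at a high signal in every condition, with 25294, 25856, 22874 and 24059 in dry pollen and 19121, 18646, 24902 and 25885 in 0.5 h PT, then 21861, 18773, 26805 and 25909.6 in 4 h PT and 17495, 19413 and 18574 in SIV PT. The SIV PT arrays were all below the dry pollen arrays, by a log2 difference of -0.41 ± 0.18 (adjusted p = 0.124), which was not called.

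CHX21 is known together with CHX23 for a role in the guidance of pollen tubes to ovules. CHX21 (AT2G31910) had signals of 59.3, 73.2, 9.20 and 63.6 in dry pollen and 147, 158, 132 and 179.9 in 0.5 h PT, then 1051, 1001, 358 and 859 in 4 h PT and 4418, 5034 and 3066 in SIV PT. No 2 conditions overlapped. The log2 change of 0.96 ± 0.29 in 0.5 h PT against dry pollen did not pass (adjusted p = 0.494). It was called at 2.88 ± 0.29 in 4 h PT against dry pollen (7.35-fold, adjusted p = 2.89e-05), at 1.92 ± 0.29 in 4 h PT against 0.5 h PT (adjusted p = 0.00181), at 2.33 ± 0.32 in SIV PT against 4 h PT (5.03-fold, adjusted p = 4.89e-05) and at 5.21 ± 0.32 in SIV PT against dry pollen (37.0-fold, adjusted p = 6.90e-09). Without SIV PT replicate 1 or without SIV PT replicate 2 the call in SIV PT against 4 h PT was lost, at log2 changes of 2.28 and 2.18, and the call in 4 h PT against 0.5 h PT was lost without any 0.5 h PT replicate or 4 h PT replicate 1, 2 or 4, at 1.78 to 1.98, and with either other offset.

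CHX19 belongs to the same branch of the family as CHX17, an exchanger of prevacuolar membranes. CHX19 (AT3G17630) gave 504, 667, 439.5 and 658 in dry pollen and 540.2, 647, 387 and 559 in 0.5 h PT, then 1869, 1487, 704 and 1748 in 4 h PT and 15053, 15612 and 11104 in SIV PT. It was expressed throughout, unlike most genes that rose, and the 4 h PT arrays were all above the earlier ones. The fitted log2 change came to 4.47 ± 0.29 in SIV PT against dry pollen (22.2-fold, adjusted p = 1.35e-08) and 3.27 ± 0.29 in SIV PT against 4 h PT (9.68-fold, adjusted p = 6.97e-07). In 4 h PT against dry pollen it was 1.20 ± 0.27 (adjusted p = 0.0257), under the 3-fold limit.

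CHX26 and CHX27 are direct neighbours on chromosome 5 and were called in opposite directions, and both were paired only through lists of changed genes. CHX26 (AT5G01680) had signals of 11.4, 10.3, 29.8 and 19.9 in dry pollen and 14.7, 99.3, 93.6 and 93.7 in 0.5 h PT, then 519.6, 926, 426 and 1360.0 in 4 h PT and 2752, 3258 and 3734 in SIV PT. All 4 h PT arrays were above the earlier arrays and below SIV PT. The log2 change was 5.33 ± 0.34 in SIV PT against dry pollen (40.3-fold, adjusted p = 9.97e-09), 3.29 ± 0.31 in 4 h PT against dry pollen (adjusted p = 1.53e-05) and 2.58 ± 0.31 in 4 h PT against 0.5 h PT (adjusted p = 2.43e-04). In SIV PT against 4 h PT it was 2.04 ± 0.34 with B of 2.65, just short of a call, and without 4 h PT replicate 4 it was called at 2.32.

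CHX27 (AT5G01690) had signals of 2779, 3035, 3465 and 3497 in dry pollen and 3989, 4630.2, 3276 and 3368 in 0.5 h PT, then 2561, 3325, 3082 and 1444 in 4 h PT and 468, 394 and 929 in SIV PT. SIV PT was below all other arrays, and replicate 4 was the low array of 4 h PT. Its log2 difference was -2.38 ± 0.29 in SIV PT against dry pollen (5.21-fold lower, adjusted p = 1.25e-05) and -2.03 ± 0.29 in SIV PT against 4 h PT (4.09-fold lower, adjusted p = 8.82e-05). The call against 4 h PT was lost without 4 h PT replicate 1, 2 or 3 or without SIV PT replicate 1 or 2, at log2 changes of -1.81 to -2.02, and with median centring.

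The other genes that fell were CHX14, known for potassium efflux, and CHX6b. CHX14 (AT1G06970) had signals of 3752, 4212, 3653 and 3856 in dry pollen and 3870.4, 3922, 3450.3 and 3749 in 0.5 h PT, then 2789, 3517, 2254 and 1675 in 4 h PT and 529, 521 and 587 in SIV PT. The 4 h PT arrays were all below dry pollen, and the SIV PT arrays were lower still, close together. The fitted log2 change came to -2.69 ± 0.21 in SIV PT against dry pollen (6.45-fold lower, adjusted p = 7.48e-08) and -2.06 ± 0.21 in SIV PT against 4 h PT (4.16-fold lower, adjusted p = 2.31e-06), while -0.63 ± 0.19 in 4 h PT against dry pollen was not called (adjusted p = 0.116).

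CHX6b (AT1G08135), which heads a run of 3 neighbours with CHX6a and CHX5 on chromosome 1, gave 5206, 4600.3, 4903 and 4835 in dry pollen and 5627, 5383, 5190.4 and 4697 in 0.5 h PT, then 4992, 4784, 4738 and 4086 in 4 h PT and 1515, 1527 and 1189 in SIV PT. The 3 earlier conditions overlapped and SIV PT was below all of them. The log2 change was -1.75 ± 0.15 in SIV PT against dry pollen (3.37-fold lower, adjusted p = 3.42e-07) and -1.68 ± 0.15 in SIV PT against 4 h PT (3.21-fold lower, adjusted p = 9.89e-07). Without SIV PT replicate 3 the log2 change against 4 h PT was -1.57, under 3-fold, and that call was also lost with median centring and with the larger offset.

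Of the NHX exchangers, which load sodium or potassium into vacuoles and other compartments, NHX4 rose and NHX1 was not called. NHX4 (AT3G06370) had signals of 17.5, 65.3, 31.3 and 21.0 in dry pollen and 22.1, 28.1, 80.2 and 52.3 in 0.5 h PT, then 266, 331, 16.1 and 459 in 4 h PT and 3544, 3400.0 and 2693 in SIV PT. On 3 of the 4 h PT arrays the signal was above every earlier array, and on replicate 3 it was below every dry pollen array. Its log2 difference was 5.08 ± 0.46 in SIV PT against dry pollen (33.9-fold, adjusted p = 4.79e-07) and 3.58 ± 0.46 in SIV PT against 4 h PT (11.97-fold, adjusted p = 3.12e-05). The 4 h PT difference from dry pollen was not called (1.50 ± 0.43, adjusted p = 0.0922); without 4 h PT replicate 3 it was 2.09 ± 0.24 and called (adjusted p = 0.000105).

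NHX1 (AT5G27150), the best known vacuolar member of its family, gave 5675, 5211, 5115 and 4675 in dry pollen and 5732, 4969.9, 5850.2 and 5530.2 in 0.5 h PT, then 4308, 5358, 5124 and 4326 in 4 h PT and 3317, 3191 and 3539.9 in SIV PT. SIV PT was below every other array by a small step, a log2 change of -0.61 ± 0.15 against dry pollen (adjusted p = 0.00669) and -0.50 ± 0.15 against 4 h PT (adjusted p = 0.0281), both under the 3-fold limit.

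KEA1 and KEA2 are potassium/proton exchangers of the plastid inner envelope. KEA1 (AT1G01790) had signals of 291, 223, 327 and 269 in dry pollen and 314, 300.1, 317 and 382 in 0.5 h PT, then 424, 457, 478 and 582 in 4 h PT and 2000.3, 2290.1 and 1980.0 in SIV PT. The replicates of each condition were close, 4 h PT lay above both earlier conditions and SIV PT far above. The fitted log2 change came to 2.66 ± 0.17 in SIV PT against dry pollen (6.33-fold, adjusted p = 9.50e-09) and 1.98 ± 0.17 in SIV PT against 4 h PT (3.93-fold, adjusted p = 4.46e-07), and 0.69 ± 0.15 in 4 h PT against dry pollen was not called (adjusted p = 0.026).

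KEA2 (AT4G00630) was near the bottom of the scale, with 10.6, 12.8, 14.4 and 13.6 in dry pollen and 4.04, 65.4, 86.9 and 52.4 in 0.5 h PT, then 6.65, 11.98, 10.4 and 50.7 in 4 h PT and 291, 204 and 137 in SIV PT. All SIV PT arrays were above all others, and only replicate 1 passed the expression limit. The log2 change was 1.80 ± 0.27 in SIV PT against dry pollen (3.48-fold, adjusted p = 8.48e-05) and 1.70 ± 0.27 in SIV PT against 4 h PT (3.25-fold, adjusted p = 1.99e-04). These calls were near the limit. The call against dry pollen was lost with an offset of 16 or of 4 times 64 in place of 64, with an intensity trend in the variances, with the replicate block, and without any 1 dry pollen replicate or SIV PT replicate 1 or 2 (log2 changes of 1.59 to 1.81 without an array). The call against 4 h PT was lost with the same settings and without any 1 dry pollen replicate, 0.5 h PT replicate 2 or 4, 4 h PT replicate 1, 2 or 3, or SIV PT replicate 1 or 2 (1.50 to 1.70). KEA4 (AT2G19600), an exchanger of Golgi and related membranes, was below the limit in every condition (signals of 74.0 to 129.6 in SIV PT and 19.0 to 241 in dry pollen) and was not called.

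The remaining CHX genes were not called in any comparison. CHX15 (AT2G13620) had signals of 5008, 4962, 5179 and 6424 in dry pollen and 4841, 5740.2, 5134 and 5361 in 0.5 h PT, then 5702, 5617, 4199 and 5041 in 4 h PT and 3212, 3241 and 2984 in SIV PT. It was lower on all SIV PT arrays, by a log2 change of -0.76 ± 0.16 against dry pollen (adjusted p = 0.00238), within the 3-fold limit. CHX28 (AT3G52080) gave 2459.6, 2572, 2298 and 2428 in dry pollen and 2015, 1684, 2564 and 2145 in 0.5 h PT, then 1479, 1751, 1337 and 1067 in 4 h PT and 2315, 2451 and 2233 in SIV PT. Its 3 lowest signals were of 4 h PT arrays, with a log2 change of -0.79 ± 0.17 in 4 h PT against dry pollen (adjusted p = 0.0225) and 0.72 ± 0.19 in SIV PT against 4 h PT (adjusted p = 0.0097), while SIV PT against dry pollen gave -0.06 ± 0.19 with a 95% interval of -0.46 to 0.33.

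CHX13, a plasma membrane transporter for potassium uptake, passed the expression limit in SIV PT only. CHX13 (AT2G30240) had signals of 123, 132, 108 and 166 in dry pollen and 157, 199.7, 138 and 208 in 0.5 h PT, then 177, 111, 225 and 173 in 4 h PT and 316, 326 and 562 in SIV PT. All SIV PT arrays were above all others, with a log2 change of 1.21 ± 0.22 against dry pollen (2.32-fold, adjusted p = 5.70e-04), under the 3-fold limit. CHX16 (AT1G64170) and the guard cell exchanger CHX20 (AT3G53720) stayed below the limit in all 4 conditions. CHX16 had signals of 9.29 to 60.0 in SIV PT and 20.5 to 31.5 in dry pollen, and CHX20 had 44.8 to 65.2 in SIV PT and 39.8 to 149 in dry pollen.

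**Figure D3:**
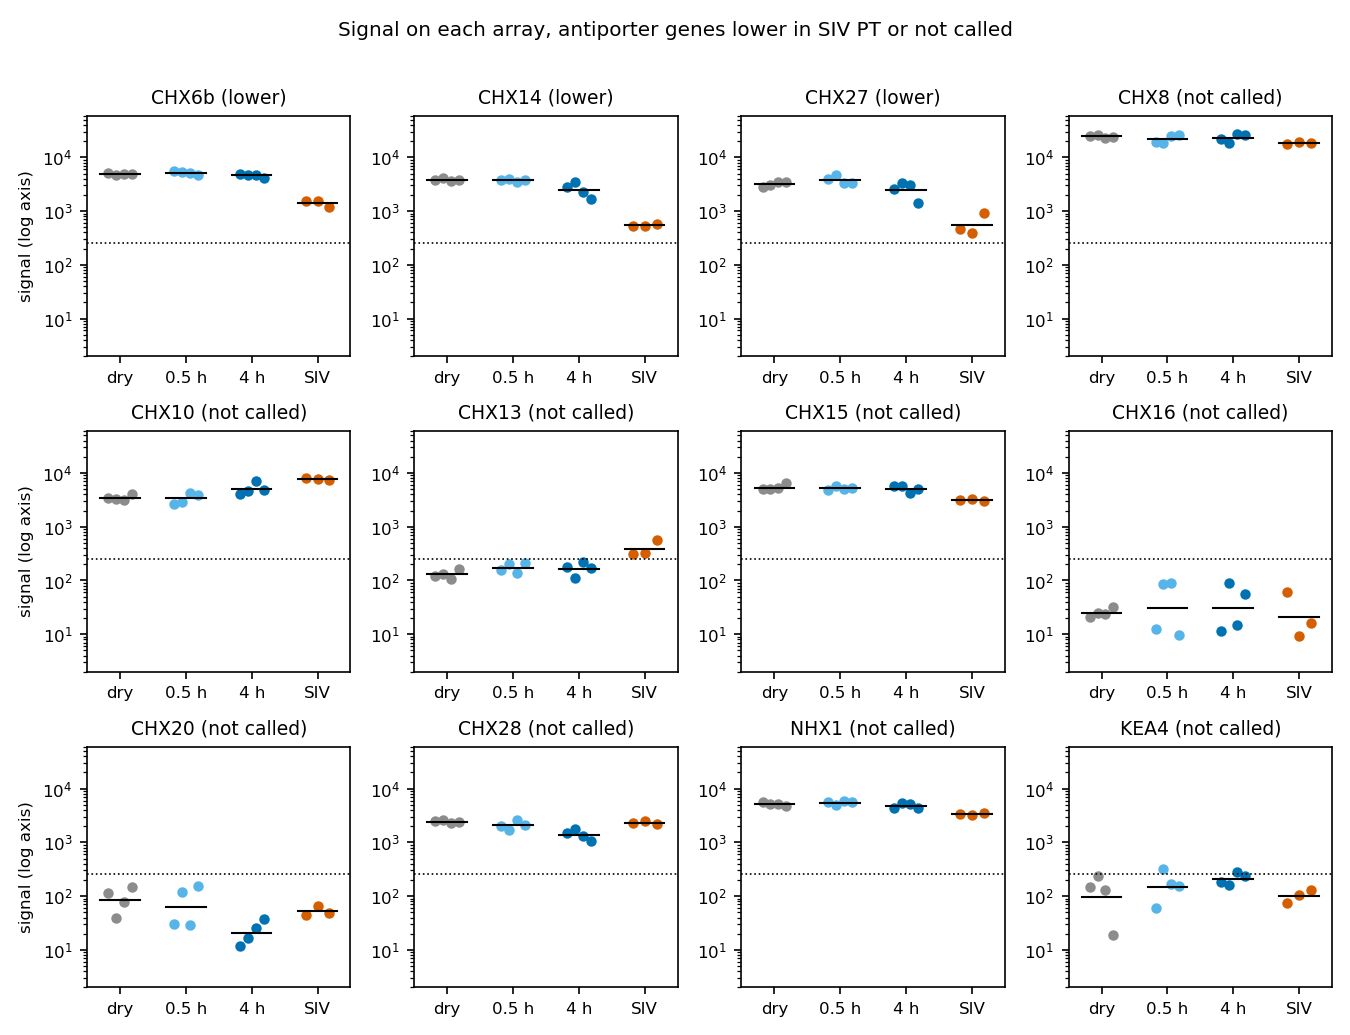
Signal on each array (log axis) for the 3 antiporter genes called lower in SIV PT than in dry pollen and the 9 not called; points are arrays, bars are geometric means, and the dotted line is the limit for expression, 8 on the log2 scale. The SIV PT points of CHX6b, CHX14 and CHX27 lie below all other points of their panels but above the limit, and those of CHX16, CHX20 and KEA4 lie under it.

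Growth through the pistil was compared with growth on medium alone by setting SIV PT against 4 h PT. Of the 23 genes, 9 were called higher in SIV PT (CHX3, CHX4, CHX7, CHX12, CHX19, CHX21, NHX4, KEA1, KEA2), where 2.71% of all probe sets were, and 3 were called lower (CHX6b, CHX14, CHX27), where 2.08% were. The median log2 change was 0.97 over the 23 genes and -0.07 over all probe sets. Of the 15 genes paired independently of the lists of changed genes, 5 were higher, 1 was lower and 9 were not called, and their median log2 change was 0.61. With an offset of 16, 3 genes stayed higher (CHX12, CHX19, KEA1), and with median centring of the arrays only CHX14 stayed lower. By the study's methods SIV PT had 3 h in the pistil, then 3 h over solid medium, and 4 h PT was in liquid medium. Besides the pistil, they differ in time, kind of medium, ungerminated grains and the part of the tube taken. These differences cannot be told apart here.

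Fewer of the genes were called during growth on medium. In 4 h PT against dry pollen 6 genes were called higher (CHX3, CHX4, CHX9, CHX12, CHX21, CHX26), against a background of 0.717% of all probe sets, and 0 were called lower, against 0.0484%. At an unadjusted p under 0.05 (limma), 11 genes were higher and 3 lower in this comparison, where 6.9% and 6.23% of all probe sets were. Of the 15 genes paired independently of the lists of changed genes, 3 were called higher (CHX4, CHX12, CHX21), and 6 were higher and 2 lower at the unadjusted limit. In 4 h PT against 0.5 h PT 4 were called higher (CHX9, CHX12, CHX21, CHX26), against 0.51% of all probe sets, and 0 lower, as for all probe sets (0%); at an unadjusted p under 0.05, 10 were higher and 4 lower, where 5.98% and 5.19% of all probe sets were. Of the 15 independently paired genes, 2 were called higher (CHX12, CHX21), and 5 were higher and 2 lower at the unadjusted limit. In 0.5 h PT against dry pollen 0 genes were called in either direction, where 0.0264% of all probe sets were higher and 0.0352% lower, and at an unadjusted p under 0.05, 3 were higher and 0 lower (CHX21, CHX26 and KEA2), where 2.98% and 3.07% of all probe sets were. At that limit 1 of the 15 independently paired genes was higher (CHX21) and 0 were lower, and CHX26 and KEA2 were paired only through lists of changed genes. These comparisons share arrays with the one of SIV PT against dry pollen, so their calls are not independent of it.

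The share of the log2 difference between SIV PT and dry pollen that was already present in 4 h PT varied among the genes that rose. It was 61.7% for CHX26, 59.8% for CHX9 and 55.2% for CHX21, then 45.3% for CHX4, 38.6% for CHX3 and 35.7% for CHX12. For NHX4, CHX7, CHX19 and KEA1 it lay between 25.8% and 29.5%, and for KEA2 it was 5.47%. Of the genes that fell, it was 23.5% for CHX14, 14.6% for CHX27 and 4.16% for CHX6b. The number of the 23 genes above the expression limit was 10 in dry pollen, as in 0.5 h PT, and it was 15 in 4 h PT and 19 in SIV PT. Over all probe sets the share above the limit was 21.7%, 21.9%, 22.5% and 26.3% in the same order. Of the genes above the limit in SIV PT but not in dry pollen, CHX3, CHX9, CHX26 and NHX4 were paired only through lists of changed genes. CHX4, CHX7, CHX12, CHX13 and CHX21 were paired independently of them. The rise in the number is thus in part set by the pairing.

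**Figure D4:**
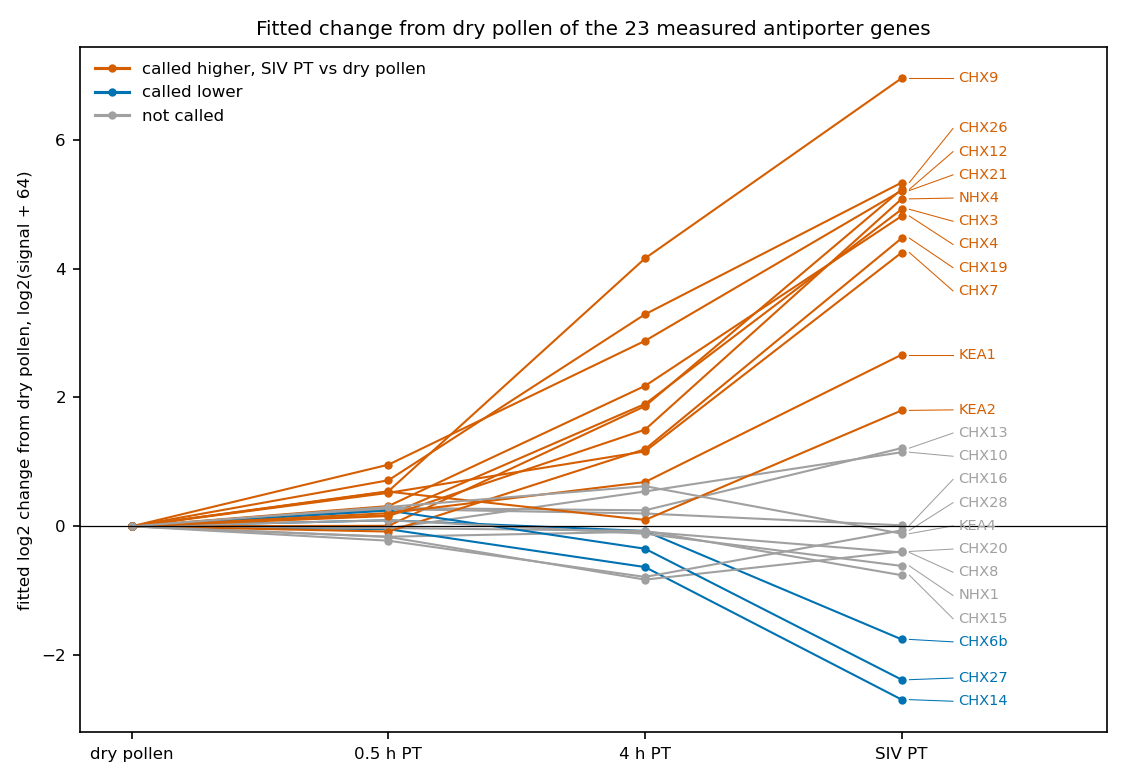
Fitted log2 change from dry pollen of the 23 antiporter genes (y axis, log2(signal + 64)) over the 4 conditions (x axis); orange lines were called higher in SIV PT than in dry pollen, blue lines lower, and grey lines were not called. On this scale CHX9, CHX26 and CHX21 had passed more than 50% of their change in 4 h PT, and KEA2 stood at 0.54 in 0.5 h PT before its step of 1.70 between 4 h PT and SIV PT.

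The 4 h PT replicates did not behave alike. Replicate 3 was the lowest 4 h PT array for 9 of the 11 genes that were higher in SIV PT than in dry pollen, and for 42.8% of the 929 probe sets called higher. Replicate 4 was the highest 4 h PT array for 6 of the 11 genes and for 63.7% of those probe sets, and the lowest for 3 of the 3 genes that were lower in SIV PT and for 70.6% of the 642 probe sets called lower. Without 4 h PT replicate 3, 7 genes in place of 4 were called higher in 4 h PT against 0.5 h PT, the added genes being CHX3 (log2 change 2.04), CHX4 (2.20) and NHX4 (1.93). Without 4 h PT replicate 4 it was 2, with CHX9 and CHX26 kept, and in 4 h PT against dry pollen it was 3 in place of 6, with CHX9, CHX21 and CHX26 kept. Over all probe sets, 116 were called higher in 4 h PT against 0.5 h PT, 144 without replicate 3 and 87 without replicate 4. In 4 h PT against dry pollen 163 were called higher over all probe sets, and 138 without replicate 4.

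The proton pumps that energise this exchange were listed from the plasma membrane H+-ATPases (AHA), the subunits of the vacuolar H+-ATPase (VHA) and the H+-pyrophosphatases AVP1 and AVP2. In all 12 of 39 were measured, AVP1 and AVP2 not among them. In SIV PT against dry pollen 2 were called higher, 0 lower and 10 not, where 4.08% of all probe sets were higher and 2.82% lower. AHA6, a pollen-expressed plasma membrane pump, averaged 10449 ± 1429 in SIV PT and 1792 ± 224 in dry pollen (SD, n = 3 and 4; log2 change 2.50, adjusted p = 9.63e-08). VHA-G3, a subunit of the vacuolar pump, averaged 3195 ± 167 in SIV PT and 480.0 ± 139 in dry pollen (log2 change 2.62, adjusted p = 1.82e-06). At an unadjusted p under 0.05 (limma), 6 of the 12 pumps were higher and 4 lower, where 17.9% and 15.3% of all probe sets were. In SIV PT against 4 h PT AHA9 was called as well, at 4268 ± 246 in SIV PT and 708 ± 24.7 in 4 h PT (log2 change 2.49, adjusted p = 2.60e-06), so that 3 were higher and 0 lower, where 2.71% and 2.08% of all probe sets were (5 higher and 4 lower at an unadjusted p under 0.05, where 17.1% and 13.9% were). In 4 h PT against dry pollen 0 of the 12 were called, and 2 were higher and 1 lower at an unadjusted p under 0.05, with the shares of all probe sets at 6.9% and 6.23%.

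Of 12 other proton-coupled exchangers and regulators, 4 were measured, and 2 were called lower and 0 higher in SIV PT against dry pollen (also 2 and 0 at an unadjusted p under 0.05, limma). Over all probe sets 2.82% were called lower and 4.08% higher, and 15.3% and 17.9% passed the unadjusted limit. MHX, a vacuolar exchanger of magnesium and zinc for protons, averaged 1205 ± 364 in SIV PT and 7417 ± 1032 in dry pollen (log2 change -2.59, adjusted p = 5.47e-08). SOS2, the kinase that activates SOS1, averaged 608 ± 62.8 in SIV PT and 2731 ± 178 in dry pollen (log2 change -2.06, adjusted p = 6.98e-07). The calcium/proton exchangers CAX1 and CAX3 were below the expression limit and not called. The median log2 change was 0.50 over the 12 pumps and -1.26 over these 4 genes. Both lists were paired by the same rule as the antiporters and can have the same tilt. How many of their genes were paired only through lists of changed genes was not counted.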

How the data were processed

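The authors deposited 1 linear intensity value per probe set for each of 15 ATH1 arrays. The submitters' processing notes name GCOS, without a version. Each array was scaled to a 2% trimmed mean of 500, and no other normalization between arrays had been done. No detection calls were used. Samples were grouped by their titles. Probe sets were paired with a gene by the platform's gene table (13352 probe sets with 1 gene) or, failing that, by locus codes in the study's supplementary tables (1949); 556 with several genes, 84 on which the sources differ, 77 with no locus and 6728 unnamed ones were tested but not named. Only the pairing was taken from those tables. Gene names and neighbours come from RefSeq's TAIR10.1 annotation, and no coordinates are given since the files name no build.

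All 15 arrays entered 1 limma model (limma 3.58.1, R 4.3.3) on log2(signal + 64) of 22746 probe sets, 64 control probe sets left out, with 1 mean per condition, empirical Bayes variances without trend (11 residual, 3.97 prior degrees of freedom) and 5 contrasts. Calls needed B above 3 and 3-fold. The limit of 8 on the mean log2 signal marked expression. The fit was tested on simulated arrays with known changes. These were planted only in probe sets with middle to high dry pollen signals, so the test does not cover genes that start low. The antiporters and the pump, exchanger and marker lists were chosen with earlier results of these data known. By the naming rule, every measured antiporter is named, those called or expressed with all arrays, and called genes of the pump and exchanger lists. Alternatives were quantile normalization, median centring, offsets of 16 and of 4 times 64, a filter on mean signal of 100, an adjusted p limit of 0.05, a variance trend, a replicate block, leaving out each array, and expression limits of 7 and 9. Precision is limited by having 3 or 4 arrays per condition. A fold on this scale understates changes of low signals.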

Additional observations from a re-analysis of the deposited data

Results flagged for a closer look

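In 69 groups of 4 arrays (23 antiporter genes in each condition but SIV PT), 5 had 1 array whose gap to the rest, divided by the group's range, exceeded Dixon's 95% limit; chance marks about 1 group in 20. Dry pollen replicate 4 was the high array for 3 genes: CHX4 at 49.97 (the others lay between 10.5 and 17.0), CHX9 at 85.0 (others 11.5 to 16.9) and CHX15 at 6424 (others 4962 to 5179). CHX26 was low in 0.5 h PT replicate 1 at 14.7 (others 93.6 to 99.3). KEA2 was high in 4 h PT replicate 4 at 50.7 (others 6.65 to 11.98). All but the CHX15 value are below a signal of 100.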

How the results depend on the processing

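The counts of antiporters called in SIV PT against dry pollen (11 higher, 3 lower) stayed within 1.5 times under every alternative run, with 10 or 11 higher and 3 lower when any 1 array was left out. In SIV PT against 4 h PT the 9 called higher became 3 with an offset of 16, and the 3 called lower became 1 with median centring; leaving out 1 array gave 6 to 11 higher and 2 or 3 lower. In 4 h PT against dry pollen the 6 called higher became 3 with an offset of 4 times 64, and 3 to 7 when 1 array was left out (3 without dry pollen replicate 1 or 3, or 4 h PT replicate 2 or 4). In 4 h PT against 0.5 h PT the 4 called higher became 2 with an offset of 16 and 2 with the larger offset, and 2 to 7 when 1 array was left out (2 without 0.5 h PT replicate 2 or 4, or 4 h PT replicate 2 or 4, and 7 without 4 h PT replicate 3). Over all probe sets, the higher calls in SIV PT against 4 h PT went from 616 to 449 with an offset of 16. The lower calls there went from 474 to 407 with median centring. Higher calls over all probe sets went from 163 to 109 in 4 h PT against dry pollen with the larger offset. In 4 h PT against 0.5 h PT they went from 116 to 100 with an offset of 16 and to 84 with the larger one. The cause of these changes was not tested. In 0.5 h PT against dry pollen the count was 0 in both directions under every alternative.

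No log2 change of a called gene turned its sign under any of the alternatives. Of 36 called changes, quantile normalization ended 1, median centring 3, the offset of 16 ended 11, the larger offset 8, the intensity trend 2, the replicate block 5, and the adjusted p limit 0. The filter on mean signal left 20 of the 23 genes (CHX16, CHX20 and KEA2 did not pass) and ended none of the 34 changes it could test. Same replicate numbers did not go with shared deviations (correlations of -0.02 to 0.04 over 21 pairs of arrays). This check cannot decide whether the numbers pair samples, since most probe sets were below the expression limit. With the replicate block, 10 antiporters were higher in SIV PT than in dry pollen, 10 higher than in 4 h PT, and 4 higher in 4 h PT than in dry pollen. The block ended the SIV PT calls of KEA2 and the 4 h PT calls of CHX12 (both) and CHX3 (against dry pollen), and it added CHX9 and CHX26 in SIV PT against 4 h PT and CHX4 in 4 h PT against 0.5 h PT. Signals under about 100 scattered widely between replicates, which limits the folds of CHX3, CHX4, CHX7, CHX9, CHX21, CHX26, NHX4 and KEA2 against dry pollen.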
